A study of Mus musculus with 23 samples.

Results

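The chaperonins are barrel-shaped folding machines, and their transcripts were measured here in whole mouse embryos that differed in p53 genotype and had or had not been heated. The genes considered are the 8 subunits of the cytosolic chaperonin CCT (also called TRiC), namely Tcp1, Cct2, Cct3, Cct4, Cct5, Cct6a, Cct7 and Cct8, together with the mitochondrial chaperonin Hspd1 (Hsp60) and its lid Hspe1 (Hsp10). They were chosen by gene symbol in the table that pairs array probes with genes, which holds 18069 named genes, and these 10 genes have 12 of the 36227 probes on the array. Cct4 has 3 of these probes and every other gene has 1. All 12 passed the filters on missing and dim values, so all were tested.

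A CCT ring holds a copy of each of its paralogous subunits, the rings stack in pairs, and the closed chamber folds actin, tubulin and other proteins that do not fold alone. Hspd1 forms the ring of the mitochondrial matrix and Hspe1 the lid that closes it, and together they fold proteins that have been imported through the mitochondrial membranes. Hspd1 and Hspe1 are classical heat shock genes that lie head to head and share the stretch of DNA between them, and CCT genes have also been described as targets of the heat shock factors.

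Embryos of day 8.5 from matings of p53 heterozygous mice were held for 10 minutes in water at 43 °C (heat) or 38 °C (control). They were then genotyped and pooled, 3 to 7 whole embryos of the same genotype and bath per array. The groups are null (p53 -/-) heat with 3 pools here, null control with 4, heterozygous (p53 +/-) heat with 4, heterozygous control with 4, wildtype (p53 +/+) heat with 4 and wildtype control with 4, which makes 23 arrays. In null and heterozygous embryos the null allele is present in every cell, and wildtype embryos carry none. All embryos were the offspring of heterozygous mothers, and each value averages over all tissues of several embryos. Nothing used here gives the strain, the litter or the time from bath to collection. Pools of a group carry letters (A to D) that name them and give no order, and the p-values rest on the variation among these pools, since nothing says whether they came from separate litters.

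Values are linear intensities in relative units, on a scale the sources do not define, after quantile normalization, and they carry no counting depth, so precision rests on how many arrays there are. The highest deposited value ran from 235.2 to 488.3 on the heat arrays and from 181.5 to 329.0 on the control arrays. The deposited control columns hold empty cells and the heat columns hold a code for missing, so the baths differ in how missing values were marked, and bath and array processing cannot be told apart. Empty control cells touch 4 of the chaperonin probes, namely Cct3 on 1 array, Cct4 probe 1 on 2, Cct4 probe 3 on 1 and Hspd1 on 1, and the fit leaves these cells out. Cct3, Cct4 probe 1 and Hspd1 are bright, at the 99.7th, 99.96th and 98.6th percentile of mean level, and Cct4 probe 3 is at the 33.5th. The empty Cct4 probe 1 cells are on wildtype control A and heterozygous control B, where the highest values were 192.8 and 181.5. Whether brightness played a part in the empty cells was not tested. Hspb1, a small heat shock protein, marked the bath in all genotypes, with a mean log2 heat difference of 2.15 ± 0.06 (SE, adjusted p = 4.7e-16). Ccng1, a p53 target, was lower in null than in wildtype embryos by a log2 difference of -1.47 ± 0.19 in the control bath (adjusted p = 0.00042), and p53 itself has no named probe. The tested markers of neural plate (5 genes), somite (4), heart (4), primitive red cells (3), endothelium (3) and gut (3) were measured in every group, as were those of yolk sac endoderm (8) and trophoblast or decidua (3), and of the 3 immune markers on the array only Cd14 was bright enough to be tested. Tbx6 (-0.27 ± 0.07), Twist1 (-0.23 ± 0.07) and Sox17 (-0.34 ± 0.07) were lower after heat over the 3 genotypes (adjusted p from 0.0042 to 0.030), and their part in the results below was not tested. In such bulk samples, fewer cells of a type and less RNA per cell cannot be told apart.

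The 250 bases before the annotated start of 4 of the genes are shown because these genes carry the results that follow: Hspe1, Tcp1 and Cct5 varied most between heated pools, and Cct8 was called between the baths. The sequences are those of RefSeq (GRCm38.p6), written 5′ to 3′ on the strand of the gene, and capitals mark matches to the heat shock elements searched.
Hspe1, chr1:55087898-55088147, plus strand: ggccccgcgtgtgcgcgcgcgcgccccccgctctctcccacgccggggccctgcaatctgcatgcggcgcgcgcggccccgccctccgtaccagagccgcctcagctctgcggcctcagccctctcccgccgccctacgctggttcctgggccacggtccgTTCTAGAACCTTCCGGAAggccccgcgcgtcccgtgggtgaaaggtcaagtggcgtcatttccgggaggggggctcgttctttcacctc
Tcp1, chr17:12916079-12916328, plus strand: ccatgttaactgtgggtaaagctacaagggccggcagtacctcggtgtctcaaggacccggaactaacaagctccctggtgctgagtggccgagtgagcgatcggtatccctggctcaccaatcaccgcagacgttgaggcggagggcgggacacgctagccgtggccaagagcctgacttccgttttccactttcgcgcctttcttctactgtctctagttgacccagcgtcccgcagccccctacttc
Cct5, chr15:31601847-31602096, minus strand: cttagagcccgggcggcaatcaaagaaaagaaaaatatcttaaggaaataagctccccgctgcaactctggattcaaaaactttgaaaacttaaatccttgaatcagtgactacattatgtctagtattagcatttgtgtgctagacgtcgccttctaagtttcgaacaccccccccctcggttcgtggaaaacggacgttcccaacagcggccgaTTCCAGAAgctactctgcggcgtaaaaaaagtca
Cct8, chr16:87495870-87496119, minus strand: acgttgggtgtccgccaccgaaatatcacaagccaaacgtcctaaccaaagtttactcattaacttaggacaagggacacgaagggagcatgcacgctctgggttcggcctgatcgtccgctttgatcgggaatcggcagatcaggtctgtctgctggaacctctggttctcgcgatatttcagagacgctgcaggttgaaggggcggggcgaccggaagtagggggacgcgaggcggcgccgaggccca
The letters searched were GAANNTTC and TTCNNGAA, which read the same on both strands and can overlap each other. Windows of 300 bases (250 before and 50 after a start) were searched, and RefSeq windows were at hand for 9 of the 10 genes, Cct4 being the other. Of all 32851 windows, 15.1% hold at least 1 of these motifs and 0.256% hold 3 or more. Hspe1 holds 3, which begin 89, 84 and 79 bases before the start and overlap into one run of alternating half-sites. An Hspd1 window overlaps that of Hspe1 by 285 bases on the other strand and contains the same run. Single matches occur 34 bases before a start of Cct5, 42 bases before another start of Cct2, and inside the transcribed part of the Cct6a window. The Tcp1, Cct3, Cct7 and Cct8 windows hold no match to these letters. A match is a description of the sequence and not a measured binding site.

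Heat was first set against control over all genotypes, which asks whether the bath changed chaperonin transcripts whatever the p53 status. One of the 12 probes passed the threshold (adjusted p under 0.05 by limma over 21979 probes), and 12.1% of all tested probes did, 5.81% as higher after heat. That probe was Cct8, a subunit of the CCT ring. Below an unadjusted p of 0.05 were 2 of the 12 (Cct8 and Cct7) and 25.4% of all tested probes. In null embryos the Cct8 signal was 82.9, 61.7 and 67.5 in the heat pools, against 67.8, 45.9, 47.0 and 36.0 in the control pools. In heterozygous embryos it was 68.4, 79.9, 78.1 and 70.9 after heat, against 66.1, 78.1, 53.8 and 56.0 in the control bath. In wildtype embryos it was 80.7, 65.5, 82.7 and 57.1 after heat, against 72.2, 56.2, 49.2 and 68.8 in the control bath. All 3 heat pools of null embryos were above 3 of the 4 null control pools, while the ranges of the baths overlapped in each genotype. Averaged over the genotypes, the log2 difference of Cct8, heat over control, was 0.34 ± 0.10 (SE, adjusted p = 0.030 by limma), with a 95% interval of 0.13 to 0.54.

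In order of the group means, Cct8 stood at 74.3 ± 5.56 in heterozygous heat (SD, n = 4), 71.5 ± 12.3 in wildtype heat (n = 4) and 70.7 ± 10.9 in null heat (n = 3). Below these came 63.5 ± 11.1 in heterozygous control, 61.6 ± 10.7 in wildtype control and 49.2 ± 13.4 in null control (n = 4 each). The 3 heat means lay above the 3 control means, and no neighbours of the same bath in this order differed past the threshold. Null heat was not tested against heterozygous control, and their ranges overlapped. The call depends on the scaling: with each array centred on its median the difference was 0.18 (adjusted p = 0.16) and with the values as deposited 0.15 (adjusted p = 0.25). It also depends on single arrays, since it was lost without any 1 of 10 of the 23, with differences from 0.29 to 0.33 and adjusted p up to 0.077. These are null heat A, heterozygous heat B, wildtype heat A and C, null control B and D, heterozygous control C and D, and wildtype control B and C.

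**Figure D1:**
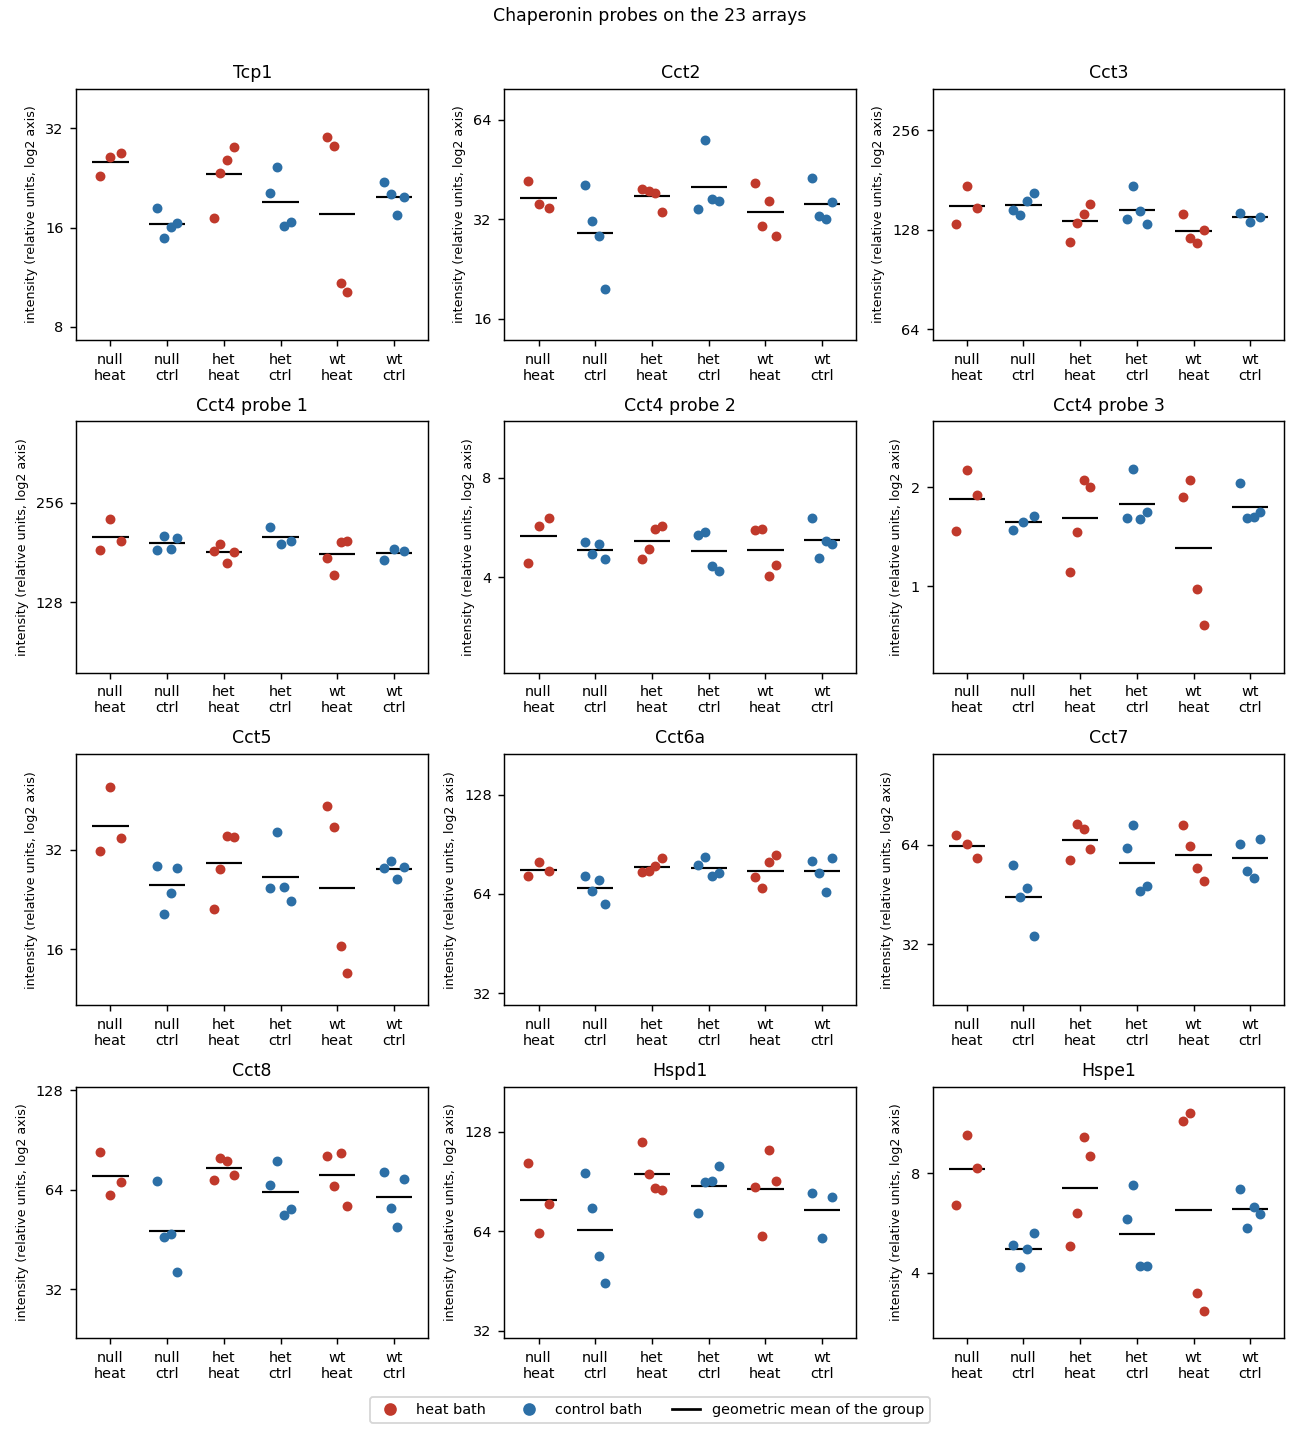
Normalized intensity of the 12 chaperonin probes on 23 arrays. Each panel is a probe with a log2 axis of the same height, points are pools of embryos (red heat, blue control), and black lines are the geometric means of the groups (null, heterozygous and wildtype from left to right, heat left of control). Hspe1, Tcp1, Cct5 and Cct4 probe 3 spread most in wildtype heat, where Hspe1 ran from 3.05 to 12.1, while the Cct6a and Cct3 points stay close to their lines.

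The other CCT probes did not pass the threshold over the genotypes. Cct7, another CCT subunit, had a log2 heat difference of 0.25 ± 0.09 (adjusted p = 0.083), which passed without heterozygous control B (0.30, 0.031) or without null control A (0.29, 0.047). That of Tcp1, the alpha subunit of the ring, was 0.24 ± 0.15 (0.35), and that of Cct5 was 0.18 ± 0.16 (0.53). Cct2 and Cct6a were near 0 at 0.06 ± 0.10 and 0.06 ± 0.05, and Cct3 was at -0.09 ± 0.06. For Cct6a the 95% interval was narrow in this fit, at -0.04 to 0.17, whereas for Cct5 it runs from -0.15 to 0.52. Over the other settings the Cct6a difference ran from -0.08 to 0.10, so that interval does not cover the choice of processing. Over the 12 probes 9 differences were positive and 3 negative, with a median of 0.12 against 0.01 over all tested probes, but 7 were positive with median centring and 6 with the values as deposited.

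The 3 Cct4 probes gave no common picture. Probe 1 had a log2 heat difference of -0.03 ± 0.05, probe 2 of 0.05 ± 0.08 and probe 3 of -0.10 ± 0.16, none past the threshold. With median centring or with the values as deposited, probe 1 passed as lower after heat (-0.25, adjusted p = 0.033, and -0.26, adjusted p = 0.032). Probe 1 is bright, at 155.0 to 228.7, and 2 of its control cells are empty, while probe 2 ran from 4.03 to 6.05 and probe 3 from 0.76 to 2.27. Which transcripts of Cct4 each probe reads is not stated in the tables used.

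The mitochondrial pair was not called either. In null embryos the Hspd1 signal was 103.1, 63.3 and 77.4 in the heat pools, against 96.1, 75.3, 53.9 and 44.7 in the control pools. In heterozygous embryos it was 119.2, 95.1, 86.4 and 85.6 after heat, against 72.5, 90.1, 90.5 and 101.0 in the control bath. In wildtype embryos it was 87.4, 61.9, 112.6 and 90.6 after heat, against 83.7, 60.9 and 81.0 in the control bath. One wildtype control cell, pool B, is empty, so only 3 wildtype control values are given. The mean log2 heat difference of Hspd1 was 0.21 ± 0.13 (adjusted p = 0.32), with an interval of -0.06 to 0.48, and the baths overlapped in every genotype.

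Hspe1, the lid, had the largest mean heat difference of the 12 probes in this fit, 0.42 ± 0.21, and also the widest spread, and it missed the threshold (adjusted p = 0.21). In null embryos the Hspe1 signal was 6.41, 10.5 and 8.28 in the heat pools, against 4.84, 4.16, 4.70 and 5.26 in the control pools. In heterozygous embryos it was 4.81, 6.08, 10.3 and 9.02 after heat, against 5.79, 7.35, 4.19 and 4.18 in the control bath. In wildtype embryos it was 11.5, 12.1, 3.46 and 3.05 after heat, against 7.19, 5.45, 6.32 and 6.01 in the control bath. All null heat pools lay above all null control pools. In wildtype embryos the heated pools lay on both sides of the control pools, A and B above and C and D below all 4.

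**Figure D2:**
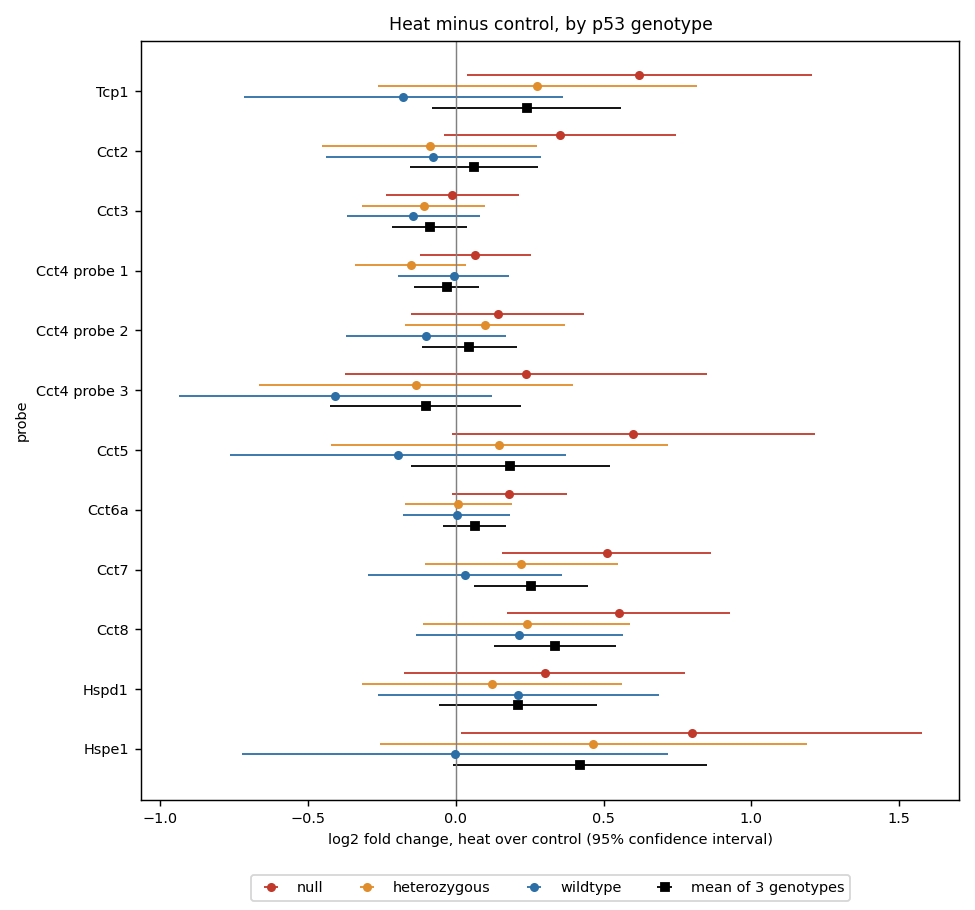
Log2 fold change of heat over control for each chaperonin probe, within null, heterozygous and wildtype embryos and for the mean of the genotypes. Points are limma estimates and bars their 95% confidence intervals, not adjusted for the number of probes. The interval of the mean excludes 0 for Cct8 (0.13 to 0.54) and Cct7 (0.06 to 0.45), and the null estimates lie right of the wildtype ones for all 12 probes, under this and the other 3 scalings.

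Within null embryos, 11 of the 12 heat differences were positive (10 under each of the other 3 scalings), with a median of 0.33 against -0.03 over all tested probes. None passed the threshold, which 4.86% of all tested probes did, and 4 were below an unadjusted p of 0.05, as were 25% of all tested probes. The lowest adjusted p was 0.075, for Cct8 at 0.55 ± 0.18, followed by Cct7 at 0.51 ± 0.17 (0.078), Tcp1 at 0.62 ± 0.28 (0.17) and Hspe1 at 0.80 ± 0.38 (0.19). In null embryos the Cct7 signal was 68.8, 64.3 and 58.3 in the heat pools, against 55.5, 44.4, 47.4 and 34.0 in the control pools. In heterozygous embryos it was 57.7, 74.2, 71.6 and 62.1 after heat, against 62.8, 73.6, 46.3 and 48.0 in the control bath. In wildtype embryos it was 73.8, 63.6, 54.6 and 49.7 after heat, against 64.5, 53.4, 50.9 and 66.8 in the control bath. In null embryos alone the Cct7 pools of the baths did not overlap.

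For 5 probes, namely Tcp1, Cct5, Cct6a, Cct7 and Hspe1, every null heat pool was above every null control pool, which holds in this direction for 10.1% of all tested probes. In null embryos the Tcp1 signal was 22.9, 26.1 and 26.9 in the heat pools, against 18.4, 14.9, 16.0 and 16.5 in the control pools. In heterozygous embryos it was 17.1, 23.4, 25.7 and 28.1 after heat, against 20.4, 24.4, 16.2 and 16.7 in the control bath. In wildtype embryos it was 30.2, 28.2, 10.9 and 10.2 after heat, against 22.0, 20.2, 17.5 and 19.8 in the control bath. In null embryos Tcp1 was thus at 25.3 ± 2.15 after heat (SD, n = 3) and at 16.4 ± 1.45 in the control bath (n = 4), whereas the wildtype heat pools lay on both sides of the wildtype controls. With a fit on the null arrays alone, which leaves out the spread of the other heat pools, Tcp1 (0.62 ± 0.10, adjusted p = 0.029) and Hspe1 (0.80 ± 0.16, 0.044) passed. Leaving out null control A raised the Cct8 difference to 0.72 (adjusted p = 0.025).

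In heterozygous embryos 8 of the 12 heat differences were positive (median 0.11, and 7 of 12 with median centring or as deposited), none passed the threshold, which 2.27% of all tested probes did, and 0 were below an unadjusted p of 0.05, against 16.4%. The lowest adjusted p was 0.42. Hspe1 had a log2 difference of 0.47 ± 0.35, Tcp1 of 0.28 ± 0.26 and Cct8 of 0.24 ± 0.17. In wildtype embryos 4 were positive and 8 negative (median -0.04; 2 positive with median centring and 0 as deposited), again with none past the threshold against 3.04% of all tested probes and none below an unadjusted p of 0.05, where 18.2% of all tested probes were. The interval of Hspe1 ran from -0.72 to 0.72 and so allows a difference of that size in either direction. Cct6a, by contrast, had a wildtype interval of -0.18 to 0.18 and Cct4 probe 1 of -0.20 to 0.18 in this fit. Over the other settings the wildtype difference ran from -0.31 to 0.06 for Cct6a and from -0.39 to 0.06 for Cct4 probe 1. Their intervals do not cover the choice of processing.

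The difference in heat response between genotypes was tested directly. The response was larger in null than in wildtype embryos for all 12 probes in sign, under each of the 4 scalings tried, with a median of 0.38 against -0.04 over all tested probes, yet none passed the threshold (0.946% of all tested probes did), and 1 was below an unadjusted p of 0.05, against 22.3% of all tested probes. The largest were Tcp1 (0.80 ± 0.38, adjusted p = 0.22), Cct5 (0.80 ± 0.40, 0.24) and Hspe1 (0.80 ± 0.51, 0.34), and the smallest was Cct4 probe 1 (0.07 ± 0.13). Over all the other settings 4 of 288 values changed sign, in 2 probes: Hspd1 went down to -0.10 and Cct4 probe 1 to -0.01. Tcp1, Cct5 and Hspe1 move together from pool to pool, as described below, so these signs are not separate observations. For the 8 yolk sac endoderm markers the median of the same difference was 1.04, with none past the threshold. Their summed level ran from 137.2 to 186.4 in null heat, 92.9 to 174.7 in null control, 161.1 to 244.1 in heterozygous heat, 89.3 to 178.9 in heterozygous control, 89.8 to 208.1 in wildtype heat and 147.9 to 207.7 in wildtype control pools, and its part in the result was not tested. Between heterozygous and wildtype embryos 9 of the 12 were positive (12 with median centring or as deposited), with a median of 0.11, and 0 probes on the whole array passed by limma, where 1343 (6.11%) were below an unadjusted p of 0.05 and none of the 12 was.

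p53 genotype was next compared within each bath, which asks whether loss of p53 alone shifts these genes. In the control bath 10 of the 12 probes were lower in null than in wildtype embryos, with a median log2 difference of -0.19 against 0.05 over all tested probes. None passed the threshold, which 8.16% of all tested probes did, and 1 was below an unadjusted p of 0.05, against 26.1% of all tested probes. The lowest adjusted p was that of Cct7, -0.39 ± 0.16 (0.12), and Cct8 had -0.35 ± 0.17 (0.20). For Hspe1 every null control pool was below every wildtype control pool (4.16 to 5.26 against 5.45 to 7.19), as were 11.5% of all tested probes, and its log2 difference was -0.39 ± 0.35 (0.49). With only the null and wildtype control arrays in the fit, Hspe1 (-0.39 ± 0.10, adjusted p = 0.016) and Tcp1 (-0.27 ± 0.09, 0.046) passed as lower, with array weights Cct7 did (-0.36 ± 0.12, 0.029), and without null control A Cct8 did (-0.51 ± 0.16, 0.049). Among the tissue markers, Otx2 (neural plate, -0.95 ± 0.27), Klf1 (primitive red cells, -1.03 ± 0.21) and Pecam1 (endothelium, -0.88 ± 0.23) were also lower and Pax6 (neural plate, 0.50 ± 0.14) higher in null controls (adjusted p from 0.013 to 0.035), and their part in the chaperonin differences was not tested.

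In the heat bath the sign was the other way for most probes: 10 of the 12 were higher in null than in wildtype embryos (12 as deposited, where the median of all tested probes was itself 0.14 against -0.01 here), with a median of 0.16, and none passed (0.628% of all tested probes did). Below an unadjusted p of 0.05 were 2 of the 12 and 20.5% of all tested probes. Cct3 had 0.26 ± 0.11 (adjusted p = 0.20) and Cct5 0.63 ± 0.30 (0.24), while Cct8 was at -0.01 ± 0.18. Cct3 ran from 133.5 to 173.5 in null heat pools and from 116.5 to 143.1 in wildtype heat pools. These comparisons share their pools with the heat comparisons above, so a low null control mean enters both.

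Heterozygous embryos were set against wildtype and null embryos in the same way. In the control bath the median difference over the 12 probes was 0.03 and the lowest adjusted p was 0.82, against 0.00455% of tested probes called, with 0 of the 12 and 5.98% of all probes below an unadjusted p of 0.05. There Cct4 probe 1 did not overlap, at 192.3 to 217.1 in heterozygous and 172.0 to 186.1 in wildtype pools (n = 3 each). As deposited it did overlap, at 205.9 to 221.4 and 177.6 to 233.6. The share of all tested probes without overlap in this comparison is not given. In the heat bath all 12 differences were positive (median 0.15, 0.01 over all tested probes), from 0.02 for Cct4 probe 1 to 0.40 for Tcp1, with a lowest adjusted p of 0.58 and 0.146% of tested probes called, and 0 of the 12 and 11.9% of all probes were below an unadjusted p of 0.05. Null against heterozygous embryos gave 10 of 12 negative differences in the control bath (9 with median centring, 11 as deposited), with Cct2 at -0.46 ± 0.18 (0.20) and 0.0455% of tested probes called, and 5 of the 12 and 18.3% of all probes were below an unadjusted p of 0.05. In that comparison every null pool of Cct6a was below every heterozygous pool (59.67 to 72.38 against 72.45 to 82.60), as for 3.3% of all tested probes. After heat 7 of 12 were positive (median 0.09), the lowest adjusted p was 0.91 and 0.00455% of tested probes were called, with 0 of the 12 and 4.64% of all probes below an unadjusted p of 0.05.

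Heat pools of the same genotype differed widely for 4 of the probes. The residual SD over the 11 heat pools, on the log2 scale, was 0.75 for Hspe1, 0.58 for Cct5, 0.56 for Tcp1 and 0.53 for Cct4 probe 3, against a median of 0.19 over all tested probes. These lie at the 99.1st, 96.9th, 96.4th and 95.6th percentile of tested probes. Among the control pools the same probes were less spread, at 0.26, 0.23, 0.19 and 0.18, where the median was 0.17. Cct6a was among the steadier transcripts in both baths, with 0.11 in heat and 0.12 in control pools, and Cct4 probe 1 had 0.14 and 0.08.

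Cct5, a CCT subunit, shows the pattern. In null embryos the Cct5 signal was 31.7, 49.6 and 34.7 in the heat pools, against 28.6, 20.5, 23.7 and 28.1 in the control pools. In heterozygous embryos it was 21.2, 27.9, 35.2 and 35.1 after heat, against 24.4, 36.1, 24.6 and 22.4 in the control bath. In wildtype embryos it was 43.3, 37.5, 16.4 and 13.6 after heat, against 28.3, 29.6, 26.2 and 28.5 in the control bath. Wildtype heat pools A and B were above and C and D below all wildtype controls, the same split as for Hspe1 and Tcp1. In wildtype heat the highest pool exceeded the lowest by 3.97-fold for Hspe1, 3.18-fold for Cct5 and 2.96-fold for Tcp1, and by 1.25-fold for Cct6a. Among heterozygous heat pools A was lowest for Hspe1, Tcp1 and Cct5, and C and D were the higher ones, and among null heat pools A was lowest for all 3 probes. As deposited, Cct5 in null heat pools A to C was at 29.1, 39.1 and 41.0, so the order of B and C depends on the scaling.

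**Figure D3:**
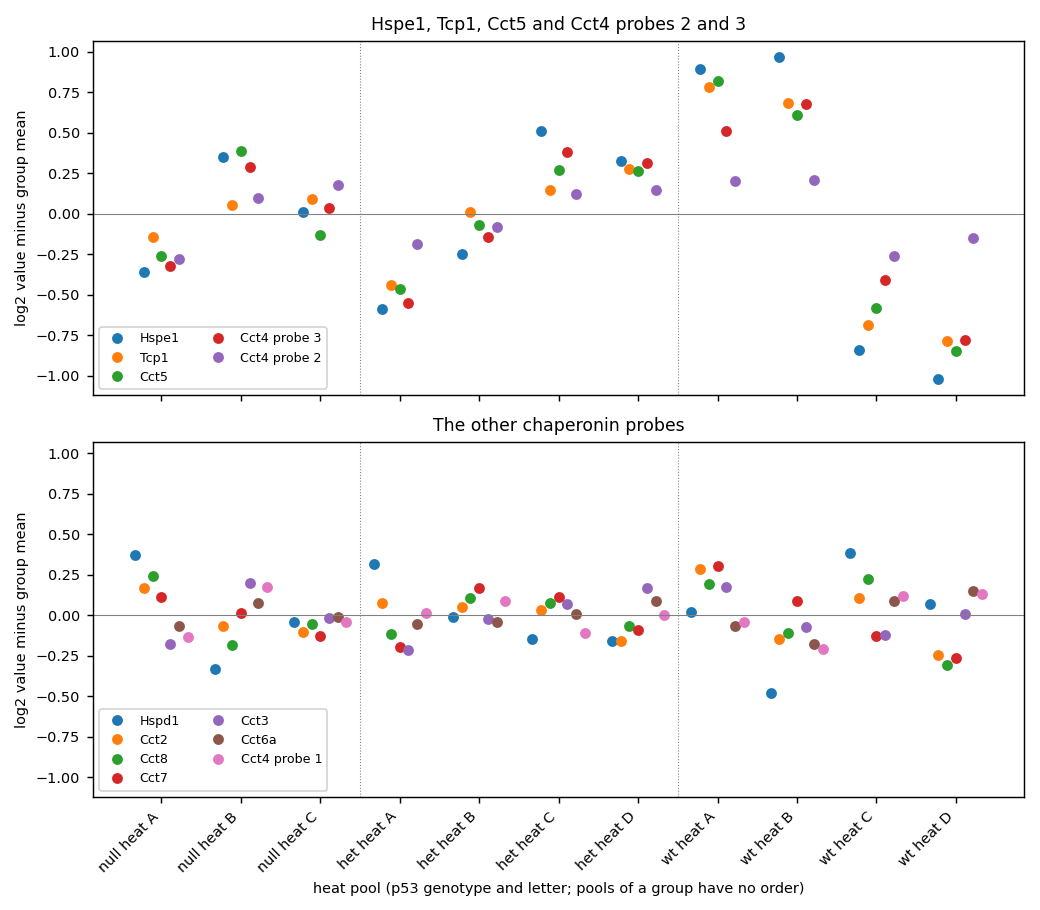
Deviation of each heat pool from the mean of its group, on the log2 scale, for 5 probes that moved together (top) and the other 7 (bottom). Each point is a probe in a pool, pools of a genotype are set between dotted lines with null left and wildtype right, and their letters give no order. Hspe1, Tcp1, Cct5 and Cct4 probe 3 share the high wildtype pools A and B and the low pools C and D, while Hspd1 is lowest in wildtype pool B.

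Across the 11 heat pools, the deviation of Hspe1 from its group means correlated with that of Cct5 at r = 0.98 (Spearman's rho 0.97, and r = 0.97 without the 2 pools farthest from the median), with Cct4 probe 3 at 0.98 (rho 0.98, 0.97) and with Tcp1 at 0.96 (rho 0.95, 0.94). These values describe 11 pools that share their arrays and normalization, 66 pairs of probes were compared, and no test was made. Such likeness is not rare on these arrays, since 4.32% of 18291 other probes had r of at least 0.9 with Hspe1 in the heat pools and 40.1% had an absolute r of at least 0.5. In the 12 control pools Hspe1 correlated with Tcp1 at 0.85 and with Cct5 at 0.73.

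Hspd1, the partner of Hspe1 in the same chaperonin and its neighbour in the genome, ran the other way. Its deviation correlated with that of Hspe1 at r = -0.75 in the 11 heat pools (rho -0.77, and r = -0.75 without the 2 pools farthest from the Hspe1 median or -0.57 without the 2 farthest from the Hspd1 median). On the values as deposited r was -0.72, and in the 11 control pools with both values it was -0.24. Wildtype heat pool C had 112.6 for Hspd1 and 3.46 for Hspe1, and pool B had 61.9 and 12.1. The 250 bases before Hspe1 shown above lie within Hspd1 window 2 as well. Window 1, at another annotated start of Hspd1, overlaps the Hspe1 window by 4 bases and holds no match.

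The ring subunits did not move as one block. Cct2 and Cct8 correlated at r = 0.83 in the heat pools and 0.87 in the control pools, and Cct7 and Cct8 at 0.60 and 0.94. Cct8 and Cct2 were nearly unrelated to Hspe1 in the heat pools (0.08 and 0.09). Cct6a and Cct4 probe 1 correlated with each other at 0.77 in the heat pools (0.86 as deposited) but at -0.27 in the control pools. Their relation to Hspe1 in the heat pools was not stable: for Cct6a r was -0.54, but 0.03 as deposited, -0.05 without the 2 pools farthest from the median and 0.32 in the control pools. For Cct4 probe 1 it was -0.56, but -0.19 as deposited and 0.53 in the control pools. Cct4 probes 2 and 3 correlated at 0.87 in the heat pools (0.84 as deposited) and 0.66 in the control pools. Cct4 probe 1 had r of -0.34 with probe 2 (0.29 as deposited, 0.41 in the control pools) and of -0.50 with probe 3 (-0.19 and -0.04), so its sign against the others depends on the scaling and the bath.

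**Figure D4:**
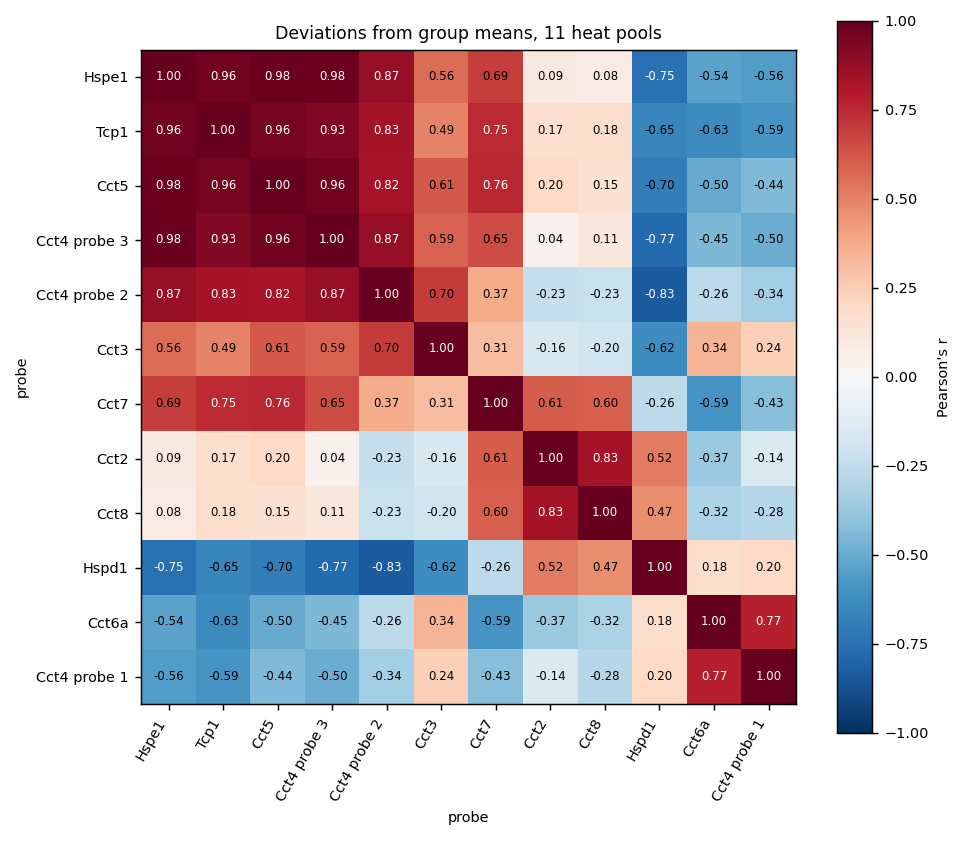
Pearson's r between the deviations of 12 chaperonin probes from their group means over 11 heat pools. Rows and columns are probes, red cells are positive and blue cells negative. Hspe1, Tcp1, Cct5 and Cct4 probes 2 and 3 form a red block with r of 0.82 or more, and Hspd1 is negative with each of them, from -0.83 to -0.65.

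Several other measures moved with the chaperonin probes. Over the 23 arrays the Hspe1 deviation correlated with that of the array's own median at r = 0.56 and with that of its highest value at -0.42, and over the 12 control arrays with the number of empty cells at -0.87. This was not particular to Hspe1, since all probes but Hspd1 were negative with the highest value (-0.27 to -0.61) and with the empty cells (-0.49 to -0.90). Hspd1 had 0.12 and -0.01 for these and -0.46 with the array's median. In the heat pools the summed level of the 5 neural plate markers, Pax3, Otx2, Pax6, Hes5 and Sox2, correlated with Hspe1 at -0.85. That sum ran from 36.2 to 41.9 in null heat, 35.1 to 37.4 in null control, 31.2 to 39.5 in heterozygous heat, 33.9 to 39.2 in heterozygous control, 32.8 to 40.7 in wildtype heat and 36.1 to 43.7 in wildtype control pools. The sums of the other marker lists had r from -0.56 for heart to 0.54 for somite. The part of these measures in the swing of Hspe1, Tcp1 and Cct5 was not tested. The inducible Hsp70 gene Hspa1a, which was at 78.7, 0.87, 121.5 and 101.8 in wildtype heat pools A to D, followed another split, with r of -0.30 to Hspe1.

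The genes most like the chaperonins over the 23 arrays, among 12219 named probes with all values, were Katna1 (r = 0.97), Tbrg1 (0.96), Napa (0.94), Hpca (0.94) and Fam32a (0.93) for the mean log2 level of the 7 CCT probes without empty cells. For Hspe1 they were Rbm3 (0.98), Resf1 (0.96), Rap1b (0.96), Snrnp48 (0.95) and Nudc (0.95). Hspd1 could not enter that mean because of its empty cell.

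Genes that work with the chaperonins were also mostly below the threshold. Each is counted by its brightest tested probe, whereas the shares beside the counts are over all tested probes. Of 12 CCT co-factors (prefoldins and phosducin-like proteins, which hand clients to CCT) 10 were measured, and over the genotypes Uri1, a prefoldin-like protein, was higher after heat (0.21 ± 0.07, adjusted p = 0.041) and Pdcl3 was lower (-0.20 ± 0.06, 0.042), so 2 of 10 passed where 12.1% of all tested probes did. In the separate genotypes none of the 10 passed. Of 22 genes on a list of CCT clients and related genes, 15 were measured. Cdh1 is on that list but is not claimed here to be a client of CCT. The tubulin Tubb6 (0.29 ± 0.05), the mitotic activator Cdc20 (0.34 ± 0.07) and the mitotic kinase Plk1 (0.52 ± 0.15) were higher after heat over the genotypes. The gamma-tubulin Tubg1 (-0.17 ± 0.05) was lower. Their adjusted p by limma ran from 0.00087 to 0.025, so 4 of 15 passed against the same 12.1%. Of these 15, Tubb6 alone passed in wildtype heat (0.36 ± 0.09, adjusted p = 0.029), Cdc20 alone in null heat (0.45 ± 0.12, 0.042), and Rptor, a partner of the kinase mTOR, alone in null against wildtype controls (0.76 ± 0.22, 0.041). Of 4 CCT-related chaperonin-like genes 3 were measured and none passed.

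Of 17 genes of mitochondrial folding and import 16 were measured and none passed in heat against control over the genotypes. In null embryos Tomm20, a receptor of the outer membrane import pore, was higher after heat by 0.37 ± 0.10 (adjusted p = 0.042), 1 of 16 where 4.86% of all tested probes passed. In the control bath Trap1, the mitochondrial Hsp90, was lower in null than in wildtype embryos (-1.03 ± 0.31, 0.043), 1 of 16 where 8.16% of all tested probes passed. Of 19 other heat shock genes 15 were measured, and 6 of them were higher and 0 lower after heat over the genotypes, where 12.1% of all tested probes passed. They include Hspb1 (2.15 ± 0.06), Hsp90aa1 (0.43 ± 0.05), Hspb8 (0.80 ± 0.13) and Hspa1a (3.23 ± 0.70). The Hspa1a rise was uneven between pools. Null heat pools A to C were at 1.78, 120.6 and 2.12, and no heterozygous heat pool exceeded 2.11. By genotype, Hspa1a passed in wildtype embryos (5.15 ± 1.17, adjusted p = 0.017 by limma). It did not pass in heterozygous (1.33 ± 1.17, 0.62) or null embryos (3.20 ± 1.27, 0.12).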

How the data were processed

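Total RNA of pooled whole embryos was labelled with biotin and read on CodeLink 1-colour arrays, per the labels' protocols. The deposited values are linear intensities; the scanner, background step and normalization were not stated. Missing and empty cells were left out. Values below each array's 5th percentile of positive values were set to it, and log2 was taken. Of 36227 probes, the 21979 tested had 3 or more values per group and exceeded the 40th percentile of present values on 3 or more arrays. These were quantile normalized and fitted with limma 3.58.1 (lmFit, eBayes with trend) in R 4.3.3 as 6 group means with 12 comparisons, with Benjamini-Hochberg adjustment over the 21979 probes and a threshold of 0.05. Array medians spanned 0.336 on the log2 scale beforehand. On simulated data for heat against control in wildtype embryos, with 21979 probes, 45% of changes of 0.5 (log2) and 84% of changes of 1 were recovered. The changed probes were drawn at random and their noise was independent. These shares therefore do not hold for the more variable Hspe1, Tcp1, Cct5 and Cct4 probe 3. Alternatives were 3 other scalings, another floor, no filter on dim probes, fits on the compared arrays only, array weights, the array's highest value as covariate, a replicate block and leaving out each array. All chaperonin probes are named, and of each related list up to 4 genes of smallest p past the threshold. Genes of the related and marker lists were represented by their brightest tested probe, and their other probes are not given. The members and lists were chosen with earlier results of these data known. Pool letters shared between groups were not taken to pair the samples in the main fit. Of same-letter pairs 27 of 55 correlated over 0.1 (median 0.077), a larger share than the 49 of 165 different-letter pairs (median -0.035). The replicate block is the alternative that takes the letters into account. A further null heat pool was not analysed here. Gene names are those of GEO's annotation of the platform, brought up to date with RefSeq.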

Additional observations from a re-analysis of the deposited data

Results flagged for a closer look

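Over the 12 probes, 55 groups of 4 pools were examined for a single pool standing apart from the others (Dixon's test at 95%, which flags about 1 in 20 groups by chance), and 3 were found, all in control pools. The test used the normalized values. Cct2 was at 55.8 in heterozygous control B, where the other pools of the group lay at 34.4 to 36.8. As deposited, Cct2 was at 46.7 in that pool and at 35.7, 40.4 and 39.9 in pools A, C and D. The size of this gap thus depends on the scaling. Cct4 probe 3 was at 2.05 in wildtype control A and at 2.27 in heterozygous control B. As deposited these were 2.16, with the other wildtype control pools at 1.60 to 1.70, and 2.37, with the other heterozygous control pools at 1.62 to 1.70. Heterozygous control B was also the highest heterozygous control pool for Tcp1, Cct5, Cct7, Cct8 and Hspe1.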

How the results depend on the processing

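Every count of chaperonin probes past the threshold was 0 except for heat over the 3 genotypes, where it was 1, and over 32 settings 9 of the 12 counts stayed as they were. For heat in null embryos 2 passed with only the compared arrays in the fit (Tcp1 and Hspe1) and 2 when the highest value of the array was a covariate (Cct7 and Cct8), and leaving out an array gave 0 to 1. For heat over the genotypes 2 passed with array weights (Cct7 and Cct8), 3 with the highest value as covariate (Cct7, Cct8 and Hspe1), and 0 to 2 when an array was left out. For null against wildtype in the control bath 2 passed with only the compared arrays, 1 with array weights, and 0 to 1 when an array was left out. Median centring and the values as deposited kept a count of 1 for heat over the genotypes, but with Cct4 probe 1 (lower) in place of Cct8. The median of all tested probes was -0.11 for heat in null embryos with median centring. As deposited it was -0.12 for heat in wildtype embryos, and 0.14 (null) and 0.13 (heterozygous) against wildtype in the heat bath. With the replicate block the counts did not change, and Cct8 was at 0.32 (adjusted p = 0.025). The cause of these changes was not tested. Array number limits all estimates: over the 12 probes the median half-width of the 95% interval was 0.36 for heat in wildtype and 0.39 in null embryos. These intervals are not adjusted for the number of probes, so larger differences could also have been missed. In null embryos Cct8 at 0.55 and Hspe1 at 0.80 were not called.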
